A study of Homo sapiens with 18 samples.

Results

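The E2 ubiquitin-conjugating enzymes were followed across a human erythroid cell line in which the transcription factor GATA1 was either truncated or full length. Every symbol of the deposited expression table that began with UBE2 and a letter was taken, except UBE2C and UBE2S, the E2 pair of the anaphase-promoting complex. A gene was kept where its value was at least 1 in at least 3 of the 18 libraries. This gave 30 of the 31 matching symbols, out of 13358 genes listed and 11110 genes that met the minimum. UBE2F-SCLY, a readthrough transcript of UBE2F and its neighbour, reached at most 0.57 and was left out. The rule itself used no difference between groups, but the members were chosen with earlier results of these data known.

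Ubiquitin reaches a substrate in 3 steps. An E1 enzyme activates it with ATP, an E2 enzyme takes it onto its active-site cysteine, and an E3 ligase brings the loaded E2 to the substrate. The E2 often sets which lysine of ubiquitin carries the next link, so that K48-linked chains lead to the proteasome and K63-linked chains mostly to signalling and DNA repair. Red cell precursors clear most of their proteins and organelles before they enter the blood, and several E2 enzymes are known from that step. UBE2O, an E2 and E3 in 1 protein, removes ribosomal proteins in mouse reticulocytes, and UBE2H is the E2 of the CTLH ligase, whose MAEA subunit is needed for erythroid maturation. UBE2L6 is the E2 of the ubiquitin-like protein ISG15.

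The cells were HUDEP1, an immortalised human erythroid progenitor line that is kept growing by a doxycycline-induced transgene. Clones 1KI9 and 1D5 made GATA1s, the isoform without the N-terminal activation domain, and the FL clone made full-length GATA1. Each clone was sampled at day 4 of differentiation and in expansion, with 3 libraries in each of the 6 groups. The day-4 medium held 3 U/mL erythropoietin, 50 ng/mL SCF (stem cell factor), 1 µg/mL doxycycline, 10 µg/mL insulin, 3 U/mL heparin, 1 mg/mL holo-transferrin, 2% fetal bovine serum and 3% human AB serum in IMDM. The expansion medium was SFEM II with erythropoietin, SCF and doxycycline at those concentrations and 1 µM dexamethasone, an agent not listed for day 4. With 1 FL clone, genotype and clone cannot be told apart, and doxycycline was present in every group. The labels do not state that the 3 libraries of a group were separate cultures, and the p-values therefore speak only of how far these libraries scatter, which may be technical.

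Values are per transcript length and on the TPM scale, a share of all transcripts. The expansion libraries summed to 943734 to 950736 and the day-4 libraries to 814583 to 1081251, so the day-4 values had been scaled further by a step not given in the sources used here. Log values of libraries in a group correlated at 0.992 to 0.998 across genes. The 12 erythroid markers were detected in every library, and their summed level at day 4 was 71180 to 80690 in 1KI9, 125500 to 143500 in 1D5 and 264500 to 281200 in FL. Globin genes made up 10.07% to 10.77% of the day-4 values in 1KI9, 15.98% to 16.92% in 1D5 and 32.94% to 34.1% in FL. In expansion they made up 3.23% to 3.61% in 1KI9, 3.64% to 5.56% in 1D5 and 4.79% to 9.18% in FL, where replicate 1 stood apart. Of the 8 monocyte and neutrophil markers, 6 were in the table and CD14 and MPO were not. The 6 summed at day 4 to 395.9 to 418.4 in 1KI9, 329.1 to 351 in 1D5 and 43.49 to 47.07 in FL, where TYROBP and CSF1R were listed at 0. In expansion they summed to 185.8 to 233.3 in 1KI9, 41.29 to 53.57 in 1D5 and 8.2 to 38.81 in FL. The 4 of 6 mast cell and basophil markers in the table summed at day 4 to 289.2 to 309.8 in 1KI9, 165.2 to 172.4 in 1D5 and 48.99 to 53.51 in FL. In expansion these summed to 70.52 to 95.13 in 1KI9, 5.22 to 10.34 in 1D5 and 3.11 to 4.33 in FL. The 3 of 6 megakaryocyte markers in the table reached at most 23.27, and the 2 of 6 lymphocyte markers at most 0.78. The part of these other lineages in the differences below was not tested. Total GATA1 RNA at day 4 was 901 to 941 in 1KI9, 1033 to 1102 in 1D5 and 221 to 236 in FL. A gene total does not separate the isoforms and so does not check the labels.

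Because GATA1 was the protein altered, the bases just before annotated starts of the E2 genes were searched for GATAA on either strand (TTATC on the other). This string holds the GATA core that GATA factors bind, and other forms of the site were not searched. RefSeq promoters (GRCh38.p14, 250 bases before the start) matched 24 of the 30 members with 36 start sites. UBE2B, UBE2H, UBE2Q1, UBE2V2 and UBE2W were among those not in that table. The motif stood in 2 of the 36 windows, those of UBE2V1 and UBE2D3, and in 20.4% of all 35116 promoters. UBE2V1, the inactive partner of the K63 chain enzyme UBE2N, had 3 matches before 1 start and 0 before another. UBE2D3, the most abundant E2 here, had 1 match before 1 start, which lay inside the annotated gene, and 0 before the other 5. These windows are shown 5′ to 3′ on the minus strand, outside annotated exons, with the motif in capitals. A match is a string of letters and not a bound site.
UBE2V1, chr20:50115960-50116207: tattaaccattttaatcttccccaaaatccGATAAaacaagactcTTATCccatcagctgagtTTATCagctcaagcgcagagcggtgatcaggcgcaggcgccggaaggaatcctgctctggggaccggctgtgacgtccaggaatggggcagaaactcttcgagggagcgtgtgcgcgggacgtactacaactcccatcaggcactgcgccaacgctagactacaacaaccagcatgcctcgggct
UBE2V1, chr20:50113199-50113400: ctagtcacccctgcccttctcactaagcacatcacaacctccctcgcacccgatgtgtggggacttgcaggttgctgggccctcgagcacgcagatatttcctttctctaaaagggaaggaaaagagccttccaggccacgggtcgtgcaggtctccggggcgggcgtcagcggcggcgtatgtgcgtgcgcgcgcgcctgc
UBE2D3, chr4:102825863-102826112: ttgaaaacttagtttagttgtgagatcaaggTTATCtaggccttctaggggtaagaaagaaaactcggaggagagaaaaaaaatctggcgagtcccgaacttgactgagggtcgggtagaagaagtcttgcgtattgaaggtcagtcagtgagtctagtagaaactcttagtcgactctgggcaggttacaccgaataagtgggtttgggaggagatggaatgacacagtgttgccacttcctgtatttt

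The E2 genes spanned a wide range of levels. UBE2D3, a K48 and mixed-chain partner of many RING ligases, had the highest mean of the family in each of the 6 groups. At day 4 it averaged 235 ± 2.695 in 1KI9, 246 ± 7.74 in 1D5 and 251 ± 6.54 in FL (SD, n = 3 each). In expansion it averaged 333 ± 4.41 in 1KI9, 302 ± 6.67 in 1D5 and 306 ± 17.4 in FL. The other end of the order was held by UBE2L6 in 5 of the 6 groups, and in FL at day 4 by UBE2D1, at 2.05 ± 0.276, another partner of RING ligases.

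The 5 most abundant E2 genes carried 44.7% to 46.1% of the family's summed level, depending on the group. They always included UBE2D3. UBE2V1 was among them in every group except FL in expansion. Other places went to UBE2V2, the other inactive partner of UBE2N, to UBE2E1, a broad partner of RING ligases, to UBE2N itself, to UBE2M, which loads NEDD8 onto cullins, and, in FL at day 4, to UBE2B and UBE2F. Of the 29 neighbouring pairs in the order, 12 had overlapping library values in 1KI9, 17 in 1D5 and 15 in FL at day 4, and 13 in 1KI9, 15 in 1D5 and 21 in FL in expansion, so that much of the order is not resolved.

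As deposited, the summed E2 level of the clones lay close together at day 4, but this depended on the scaling. As a share of the whole library sum at day 4 it was 0.1888% to 0.2017% in 1KI9. The share was 0.1729% to 0.1849% in 1D5 and 0.1485% to 0.1615% in FL, without overlap. The deposited sum at day 4 was 1642 ± 32.2 in 1KI9, 1618 ± 15.5 in 1D5 and 1632 ± 50 in FL (SD, n = 3 each). In expansion it was 2300 ± 41.4 in 1KI9, 2158 ± 46.5 in 1D5 and 2154 ± 167 in FL, where replicate 1 held 1963 and the other libraries 2273 and 2226. Set against the library sum without globin and mitochondrially encoded genes, the E2 enzymes made up 0.276% in 1KI9, 0.268% in 1D5 and 0.267% in FL at day 4, and 0.309% in 1KI9, 0.301% in 1D5 and 0.293% in FL in expansion.

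At day 4 UBE2O and UBE2H, the E2 genes known from late red cell maturation, and UBE2L6 were lower in both GATA1s clones than in FL. UBE2L6, UBE2H, UBE2O, UBE2B, UBE2V1, UBE2F and UBE2K passed the test with a lower level in each clone, and UBE2E3 in 1KI9. The test was limma on log2(value + 1) over all 18 libraries, with p-values adjusted over all genes tested and a threshold of 0.05. Differences are clone minus FL on that scale with the model's standard error, and they understate changes of low genes. In bulk RNA, fewer cells at a stage and less RNA per cell cannot be told apart.

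UBE2L6 (ENSG00000156587, chr11:57551656-57568284, hg38, minus strand) had the largest difference of the family. At day 4 its values were 2.55, 2.79 and 2.47 in 1KI9, 2.63, 3.38 and 2.78 in 1D5 and 31.7, 32.6 and 33.7 in FL. Every FL library lay above every GATA1s library, and the clones overlapped each other. The means of the clones were 12.5-fold lower in 1KI9 and 11.1-fold lower in 1D5 than in FL. On the log2 scale the differences were -3.22 ± 0.14 in 1KI9 (adjusted p = 7.69e-13) and -3.10 ± 0.14 in 1D5 (adjusted p = 1.98e-12). Of the 11083 genes tested at day 4, 27 had a lower difference than UBE2L6 in 1KI9 and 20 in 1D5.

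UBE2H (chr7:129830732-129952949, minus strand) was the E2 gene next in size of fall in 1KI9. At day 4 it had 40.9, 40.0 and 42.5 in 1KI9, 48.2, 42.3 and 49.0 in 1D5 and 76.9, 78.7 and 81.9 in FL. The FL libraries again lay above all 6 GATA1s libraries. The differences were -0.93 ± 0.07 in 1KI9 (adjusted p = 3.05e-09) and -0.76 ± 0.07 in 1D5 (adjusted p = 6.23e-08), and the clone means were 1.92-fold and 1.7-fold lower than FL, in that order.

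UBE2O (chr17:76389451-76453206, minus strand) had 10.52, 9.88 and 10.3 in 1KI9, 11.15, 11.9 and 11.3 in 1D5 and 21.7, 19.1 and 20.3 in FL at day 4. Its FL libraries lay above all 6 others, and the differences were -0.92 ± 0.07 in 1KI9 (adjusted p = 2.22e-09) and -0.78 ± 0.07 in 1D5 (adjusted p = 3.07e-08). Among all genes tested at day 4, 536 had a lower difference than UBE2O in 1KI9 and 562 in 1D5, and 532 had a lower one than UBE2H in 1KI9 and 584 in 1D5.

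UBE2B (chr5:134371179-134391992) is a RAD6 homolog that ubiquitinates PCNA and histone H2B. It had 58.3, 62.9 and 62.99 in 1KI9, 61.9, 63.25 and 69.65 in 1D5 and 95.4, 95.8 and 111 in FL. UBE2A, the other human RAD6 homolog, went the other way, at 48.9, 49.3 and 46.7 in 1KI9, 50.2, 49.1 and 45.8 in 1D5 and 37.65, 38.8 and 36.7 in FL. For each of the 2 genes the FL libraries lay outside the range of the 6 GATA1s libraries. UBE2B differed by -0.70 ± 0.07 in 1KI9 (adjusted p = 5.70e-08) and -0.63 ± 0.07 in 1D5 (adjusted p = 3.50e-07), and UBE2A by 0.35 in 1KI9 and 0.35 in 1D5. The rise of UBE2A depended on the scaling described below, under which its difference was -0.03 in 1KI9 and 0.02 in 1D5, neither past the threshold.

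UBE2V1 (chr20:50081124-50115959, minus strand) had 154, 160.5 and 156 in 1KI9, 156, 154 and 162 in 1D5 and 228, 220.5 and 234 in FL. It differed by -0.53 in 1KI9 (adjusted p = 2.76e-08) and -0.53 in 1D5 (adjusted p = 4.41e-08), with no overlap between the clones and FL. Its catalytic partner UBE2N and its close relative UBE2V2 rose in the same comparisons, UBE2N by 0.70 in 1KI9 and 0.53 in 1D5, and UBE2V2 by 0.30 in 1KI9 and 0.33 in 1D5. UBE2V1 has 15 named pseudogenes and shares exons with the readthrough TMEM189-UBE2V1, listed here at 0 to 2.74, so reads could be split among copies. The UBE2V2 rise changed sign with the scaling in 1KI9, at -0.08, and was 0.00 in 1D5.

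UBE2F (chr2:237966827-238042782), which loads NEDD8 onto CUL5, averaged 65.8 ± 1.04 in 1KI9, 68.9 ± 2.43 in 1D5 and 90.8 ± 5.34 in FL. It was lower, with differences of -0.46 in 1KI9 and -0.39 in 1D5 (adjusted p = 3.34e-06 and 2.42e-05, in that order). The other NEDD8 enzyme, UBE2M, differed by 0.10 in 1KI9 and 0.03 in 1D5 and passed in neither. UBE2K (chr4:39698044-39782792), which builds K48 chains and carries a ubiquitin-binding domain, averaged 50.9 ± 1.85 in 1KI9, 50.3 ± 0.974 in 1D5 and 65.9 ± 1.71 in FL. Its differences were -0.37 in 1KI9 (adjusted p = 1.39e-06) and -0.38 in 1D5 (adjusted p = 1.07e-06).

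**Figure D1:**
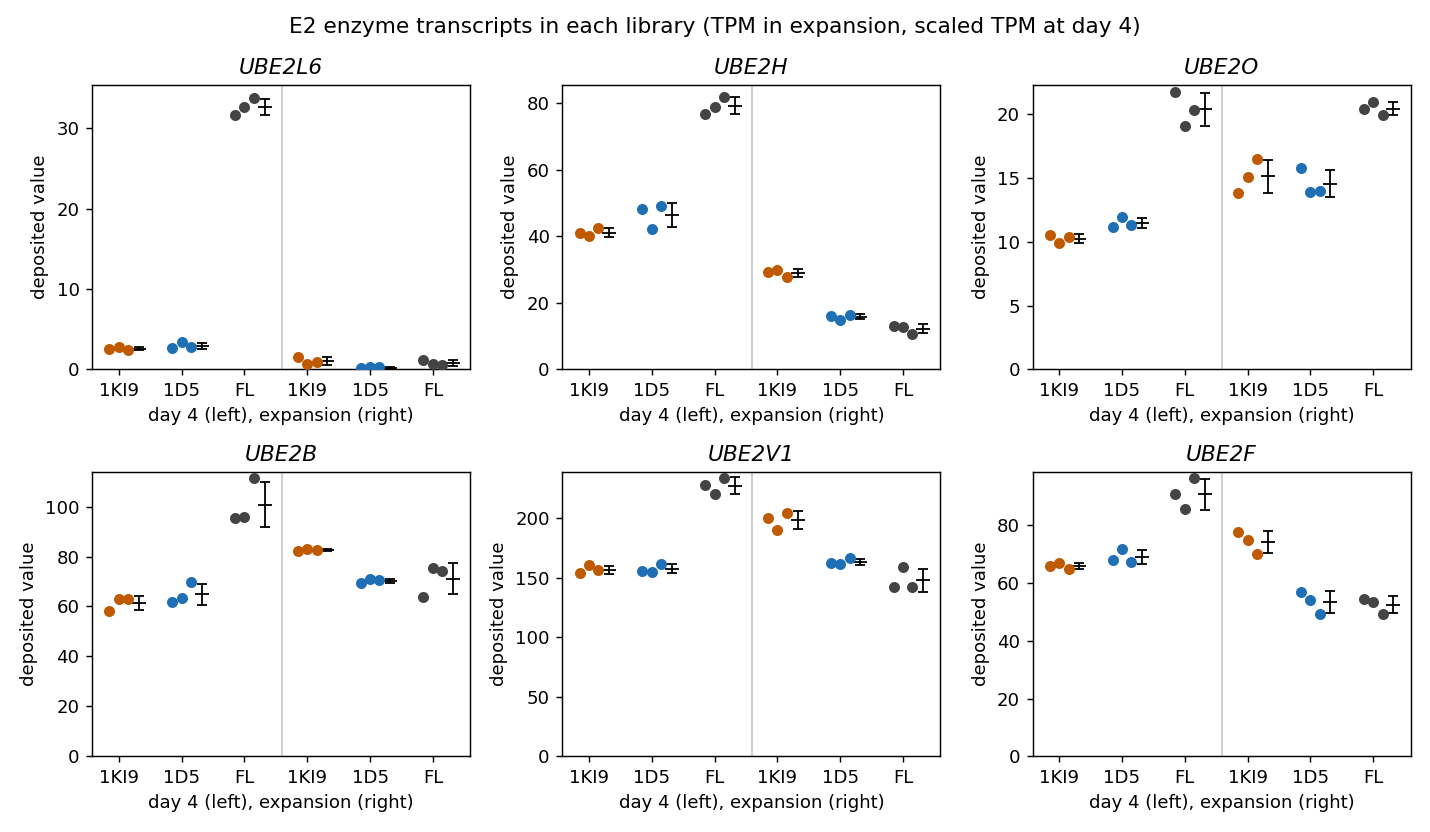
Deposited value (TPM scale) of 6 E2 genes in each library, with the mean and SD of each group of 3, day 4 on the left and expansion on the right, and 1KI9, 1D5 and FL from left to right. At day 4 the FL libraries lie above all GATA1s libraries for UBE2L6, UBE2H, UBE2O, UBE2B, UBE2V1 and UBE2F, and in expansion UBE2H is highest in 1KI9.

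Other E2 genes were higher in the GATA1s clones at day 4. UBE2E2, a class III E2 with a long N-terminal extension, had 33.75, 42.2 and 39.4 in 1KI9, 36.6, 33.5 and 32.5 in 1D5 and 18.5, 21.0 and 22.2 in FL. UBE2W, which places ubiquitin on protein N-termini, had 10.4, 9.64 and 9.91 in 1KI9, 9.29, 8.13 and 8.70 in 1D5 and 4.97, 4.71 and 5.71 in FL. UBE2J1, an E2 of the endoplasmic reticulum that serves the degradation of misfolded proteins, had 16.9, 16.5 and 18.02 in 1KI9, 14.0, 13.3 and 14.3 in 1D5 and 8.83, 9.09 and 9.67 in FL. For each of these genes all 6 GATA1s libraries lay above the FL libraries.

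UBE2E2 differed by 0.87 ± 0.10 in 1KI9 (adjusted p = 4.83e-07) and 0.71 ± 0.10 in 1D5 (adjusted p = 7.38e-06). For UBE2W the differences were 0.84 ± 0.08 in 1KI9 (adjusted p = 3.90e-08) and 0.66 ± 0.08 in 1D5 (adjusted p = 1.06e-06). For UBE2J1 they were 0.83 ± 0.07 in 1KI9 (adjusted p = 7.21e-09) and 0.54 ± 0.07 in 1D5 (adjusted p = 2.29e-06). UBE2Z, which works with the E1 UBA6 and can carry FAT10, averaged 49.0 ± 1.08 in 1KI9, 47.4 ± 0.428 in 1D5 and 29.8 ± 0.347 in FL, and rose by 0.70 in 1KI9 and 0.65 in 1D5. Centred on the bulk of genes instead, as described below, UBE2E2, UBE2W, UBE2J1 and UBE2Z still passed in each clone, at 0.50, 0.51, 0.475 and 0.32 in 1KI9 and 0.39, 0.38, 0.24 and 0.33 in 1D5.

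Among the K48 builders and RING partners at day 4, UBE2D1 rose by 0.81 in 1KI9 and 0.52 in 1D5, and UBE2D4 by 0.55 in 1KI9 and 0.51 in 1D5. UBE2G1, which extends chains for CUL4 ligases, rose by 0.40 in 1KI9 and 0.43 in 1D5. UBE2R2, an SCF partner, rose by 0.29 in 1KI9 and 0.38 in 1D5, and UBE2D2 by 0.24 in 1KI9 and 0.20 in 1D5. Centred on the bulk of genes, UBE2D2 had negative differences instead, of -0.14 in 1KI9 and -0.13 in 1D5, and UBE2R2 was at -0.07 in 1KI9 and 0.06 in 1D5. UBE2D2, UBE2R2, UBE2D4 and UBE2G1 did not pass in either clone there. The 1D5 call of UBE2D2 was lost without 1D5 replicate 2 (0.169, adjusted p = 0.0508), FL replicate 1 (0.164, 0.0627) or FL replicate 2 (0.145, 0.0822). UBE2D3 had differences of -0.10 in 1KI9 and -0.03 in 1D5 and did not pass in either.

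UBE2L3, the E2 of HECT and RBR ligases, rose by 0.55 in 1KI9 and 0.455 in 1D5. UBE2E1 rose by 0.58 in 1KI9 and 0.33 in 1D5, but centred on the bulk of genes the 1D5 differences of UBE2L3 and UBE2E1 were 0.135 (adjusted p = 0.121) and 0.00 (adjusted p = 0.992). UBE2G2, an endoplasmic reticulum E2, rose in 1KI9 by 0.49 and was 0.12 in 1D5 (adjusted p = 0.198). With median-of-ratios scaling it was 0.11 in 1KI9, no longer past the threshold (adjusted p = 0.157), and lower in 1D5, at -0.20 (adjusted p = 0.0145). UBE2Q1, a divergent E2, rose in 1D5 by 0.40 and was 0.05 in 1KI9 (adjusted p = 0.618). That scaling gave 0.08 in 1D5 (adjusted p = 0.481) and a lower value in 1KI9, at -0.33 (adjusted p = 0.0039). UBE2E3, a class III E2, was lower in 1KI9, at -0.27, and was 0.10 in 1D5 (adjusted p = 0.205), where it was lower with that scaling, at -0.22 (adjusted p = 0.0116). Neither clone passed for UBE2J2, the endoplasmic reticulum relative of UBE2J1, at 0.05 in 1KI9 and 0.00 in 1D5, for UBE2Q2, at -0.07 and -0.13, or for UBE2T, the E2 of the Fanconi anaemia pathway, at 0.09 and 0.11.

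Counted over the family at day 4, 16 E2 genes were higher and 8 lower in 1KI9 than in FL, and 6 did not pass. In that comparison 76.4% of the 11083 genes tested passed, 58.9% of the genes tested as higher and 17.5% as lower. For 1D5 the family counts were 16 higher, 7 lower and 7 not passing, against 71.1% of all genes passing, 54.8% as higher and 16.3% as lower. The median difference over the 30 E2 genes was 0.27 in 1KI9 and 0.26 in 1D5, beside medians of 0.32 and 0.26 over all genes tested. The share of E2 genes that passed was thus close to the share of all genes. The clone comparisons share the 3 FL libraries, so their likeness is not independent.

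The split between higher and lower depended on how the libraries were scaled. Median-of-ratios scaling centres each library on the bulk of its genes, and it moved the day-4 median of all genes from 0.32 to -0.01 in 1KI9 and from 0.26 to -0.02 in 1D5. The shares of all genes called were taken for the deposited values with all libraries only. No shift of the E2 genes is therefore read from counts under other settings, here or below. With median-of-ratios scaling, 9 E2 genes were higher and 14 lower in 1KI9, and 7 higher and 14 lower in 1D5. The E2 genes lower in each clone as deposited became lower still. UBE2L6 was at -3.60 in 1KI9 and -3.44 in 1D5, UBE2H at -1.31 and -1.09, UBE2O at -1.30 and -1.10, UBE2B at -1.09 and -0.96, UBE2V1 at -0.92 and -0.86, UBE2F at -0.84 and -0.72, and UBE2K at -0.75 and -0.715. UBE2D3, UBE2M, UBE2J2, UBE2Q2 and UBE2T, which did not pass as deposited, were lower in each clone with that scaling, UBE2D3 at -0.48 in 1KI9 and -0.36 in 1D5 and the others at -0.21 to -0.44. Globin shares of the library moved with the same groups. Dividing by the sum without globin and mitochondrially encoded genes gave 16 higher and 8 lower E2 genes in 1KI9 and 16 higher and 7 lower in 1D5. As deposited, those sums already lay close together across the day-4 groups, so this division could change these counts little. The part of globin in the split was not tested.

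**Figure D2:**
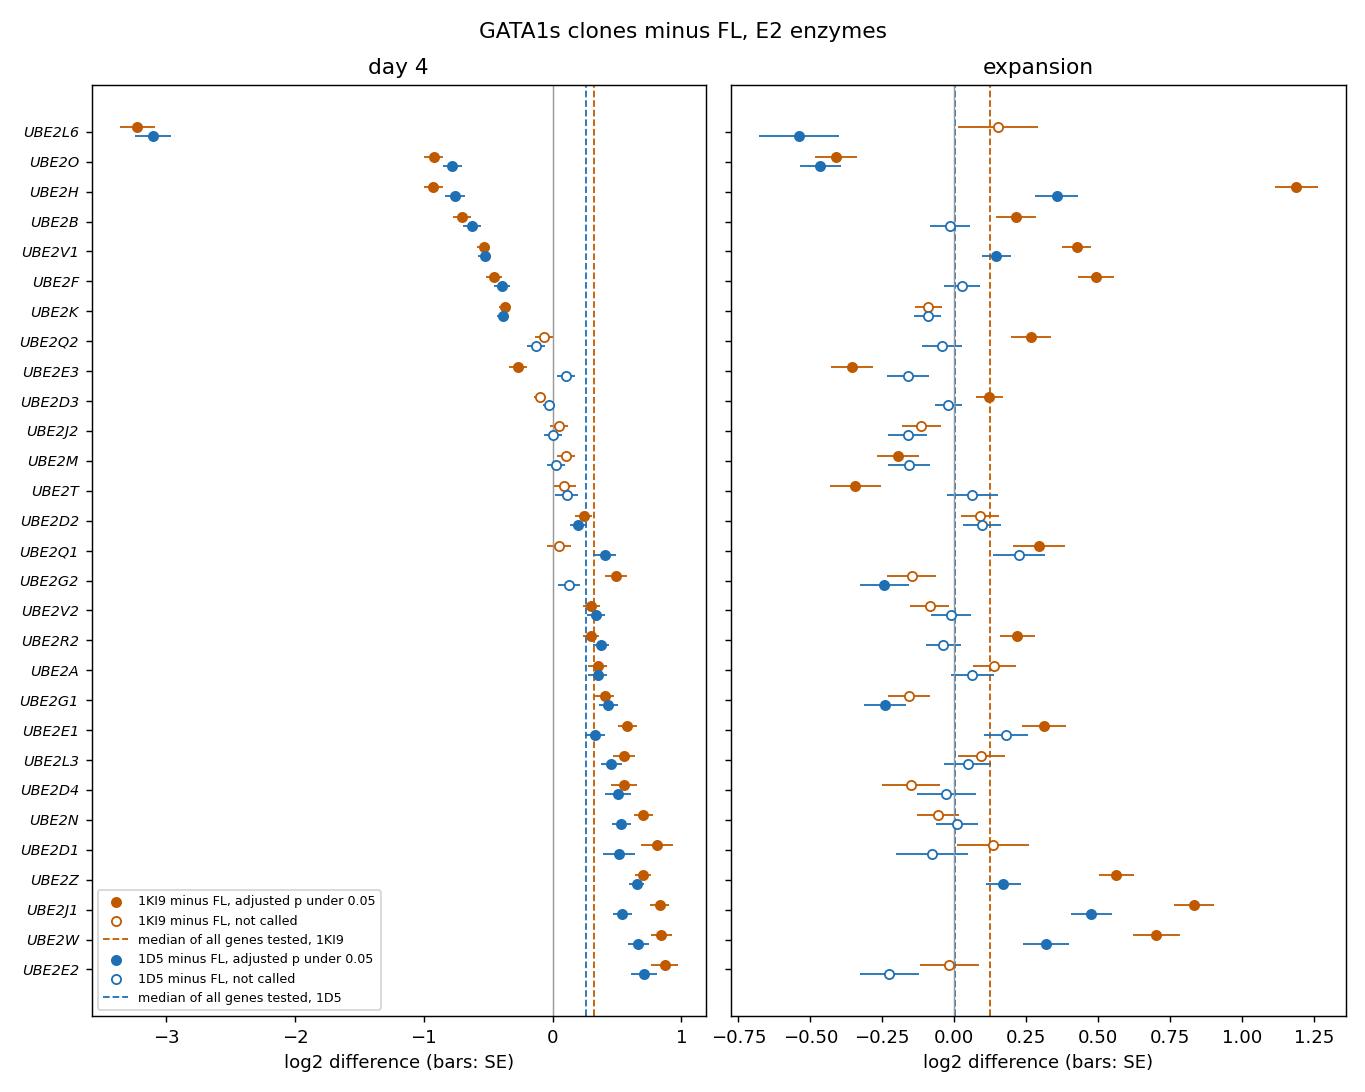
Log2 difference from FL for E2 genes in 1KI9 and 1D5, day 4 on the left and expansion on the right, with bars of 1 SE and filled points for genes past the adjusted threshold. Dashed lines mark the medians of all genes tested, 0.32 in 1KI9 and 0.26 in 1D5 at day 4, and UBE2L6 stands far below the rest at day 4.

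**Figure D3:**
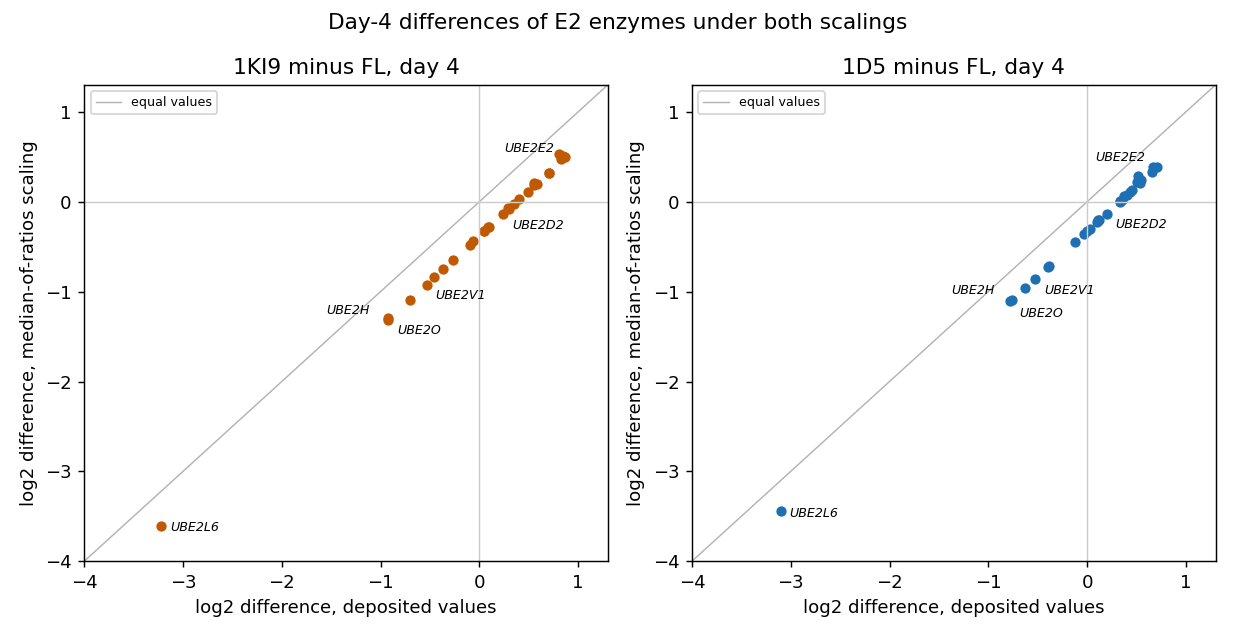
Day-4 log2 difference from FL of each E2 gene as deposited (horizontal) and after median-of-ratios scaling (vertical), 1KI9 on the left and 1D5 on the right. Every point lies below the line of equal values, and UBE2D2 moves from a positive to a negative difference in each clone.

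In expansion 17 E2 genes passed against FL in 1KI9 and 9 in 1D5, beside 59.6% and 31.1% of all genes tested. The contrast with the day-4 counts was not tested. UBE2H was among the E2 genes that rose. UBE2H had 29.2, 30.03 and 27.7 in 1KI9, 16.2, 14.9 and 16.4 in 1D5 and 13.01, 12.9 and 10.7 in FL. Every 1KI9 library lay above every other library. The differences were 1.19 ± 0.07 in 1KI9 (adjusted p = 2.08e-10) and 0.36 ± 0.07 in 1D5 (adjusted p = 0.00132), and the 1KI9 mean was 2.38-fold that of FL. Fitted on its 2 groups alone, the 1D5 difference kept its size and had an adjusted p of 0.0603.

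UBE2J1 had 28.0, 30.03 and 31.25 in 1KI9, 23.5, 24.3 and 21.2 in 1D5 and 15.02, 17.2 and 16.6 in FL, with no overlap between any of the groups. It differed by 0.83 ± 0.07 in 1KI9 (adjusted p = 1.33e-08) and 0.48 ± 0.07 in 1D5 (adjusted p = 4.97e-05). UBE2W had 10.6, 9.68 and 10.99 in 1KI9, 7.78, 7.90 and 7.61 in 1D5 and 5.42, 6.53 and 6.17 in FL. It rose by 0.70 in 1KI9 (adjusted p = 7.79e-07) and 0.32 in 1D5 (adjusted p = 0.00611), the second at an adjusted p of 0.0589 when only its 2 groups were fitted. UBE2J1 and UBE2W were thus higher than FL in each clone in both conditions.

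UBE2Z had 43.7, 44.65 and 48.9 in 1KI9, 36.2, 32.2 and 35.5 in 1D5 and 28.4, 31.8 and 31.7 in FL. UBE2V1, lower in the clones at day 4, was higher in expansion, at 200.4, 190.4 and 205 in 1KI9, 162, 161 and 166 in 1D5 and 142, 159 and 142 in FL. UBE2Z differed by 0.56 in 1KI9 (adjusted p = 2.69e-07) and 0.17 in 1D5 (adjusted p = 0.0382), and UBE2V1 by 0.43 in 1KI9 (adjusted p = 9.93e-07) and 0.15 in 1D5 (adjusted p = 0.0348). The 1D5 calls of these genes were slight. UBE2Z no longer passed without 1D5 replicate 1 (0.138, adjusted p = 0.143), 1D5 replicate 3 (0.152, 0.108) or FL replicate 1 (0.119, 0.139). UBE2V1 no longer passed without 1D5 replicate 1 (0.150, 0.0676), 1D5 replicate 2 (0.154, 0.0612), 1D5 replicate 3 (0.133, 0.0977), FL replicate 1 (0.119, 0.0916) or FL replicate 3 (0.120, 0.125).

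UBE2O was lower than FL in expansion as at day 4. It had 13.8, 15.1 and 16.4 in 1KI9, 15.7, 13.9 and 13.9 in 1D5 and 20.4, 20.9 and 19.9 in FL, and the FL libraries lay above all others. The differences were -0.41 ± 0.07 in 1KI9 (adjusted p = 9.34e-05) and -0.46 ± 0.07 in 1D5 (adjusted p = 8.06e-05). UBE2L6 was near 0 in every expansion library, at 1.55, 0.67 and 0.88 in 1KI9, 0.16, 0.29 and 0.27 in 1D5 and 1.22, 0.67 and 0.57 in FL. It was lower in 1D5, at -0.54 (adjusted p = 0.00641) and differed by 0.15 in 1KI9 (adjusted p = 0.354).

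Over the family in expansion, 13 E2 genes were higher, 4 lower and 13 not past the threshold in 1KI9, against 59.6% of the 11042 genes tested passing, 41.0% as higher and 18.5% as lower. In 1D5 the counts were 5 higher, 4 lower and 21 not passing, against 31.1% of all genes, 18.7% as higher and 12.4% as lower. Besides those named, UBE2F, UBE2E1, UBE2Q1, UBE2Q2, UBE2R2, UBE2B and UBE2D3 were higher in 1KI9, by 0.12 to 0.49, and UBE2E3, UBE2T and UBE2M were lower, at -0.36, -0.34 and -0.19. In 1D5 the other lower genes were UBE2G1, at -0.24, and UBE2G2, at -0.24. Median-of-ratios scaling gave 6 higher and 11 lower E2 genes in 1KI9 and 3 higher and 7 lower in 1D5, and the all-gene median in 1KI9 moved from 0.13 to -0.07. Without globin and mitochondrially encoded genes in the sum there were 8 higher and 3 lower in 1D5. With median-of-ratios scaling the 1KI9 calls of UBE2E1 (0.10), UBE2Q1 (0.08), UBE2Q2 (0.07), UBE2R2 (0.02), UBE2B (0.00) and UBE2D3 (-0.09) were lost, with UBE2D3 turned negative. In 1D5 the calls of UBE2V1 (0.11, adjusted p = 0.106) and UBE2Z (0.14, adjusted p = 0.0592) were lost with it.

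FL replicate 1, the expansion library with the highest globin share and the lowest E2 sum, weighed on these counts. Without it, 10 E2 genes were higher and 9 lower in 1KI9, and 3 higher and 10 lower in 1D5. UBE2B (a difference of 0.139 and an adjusted p of 0.0828) and UBE2D3 (0.075, 0.148) then no longer passed in 1KI9. In 1D5 the calls lost were those of UBE2Z, UBE2V1 and UBE2G2 (-0.233, 0.0727). Other expansion libraries also decided slight calls. In 1KI9, UBE2D3 was lost without 1KI9 replicate 2 (0.122, 0.0704) or 3 (0.113, 0.0863), and UBE2Q1 without 1KI9 replicate 3 (0.236, 0.0538). UBE2M was lost without 1KI9 replicate 1 (-0.172, 0.0887) or 2 (-0.199, 0.0541) and without FL replicate 2 (-0.129, 0.148) or 3 (-0.167, 0.0932). In 1D5, UBE2G1 was lost without 1D5 replicate 3 (-0.208, 0.067) or FL replicate 2 (-0.163, 0.0972) or 3 (-0.213, 0.0659), and UBE2G2 without 1D5 replicate 2 (-0.257, 0.0619) or 3 (-0.176, 0.164) or FL replicate 2 (-0.204, 0.117). What set FL replicate 1 apart was not tested.

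The GATA1s clones also differed from each other, in 13 E2 genes in expansion and 5 at day 4, and the contrast between these counts was not tested. In expansion 11 E2 genes were higher and 2 lower in 1KI9 than in 1D5, where 40.6% of all genes tested passed, 33.4% as higher and 7.16% as lower. UBE2H differed by 0.83 ± 0.07 (adjusted p = 1.04e-07) and UBE2L6 by 0.69 ± 0.14 (adjusted p = 0.000657), UBE2L6 standing at 1.55 or less in every library of the clones. UBE2F had 77.7, 74.8 and 70.2 in 1KI9, 57.0, 54.0 and 49.4 in 1D5 and 54.6, 53.6 and 49.2 in FL, so that 1KI9 stood above both other clones. It differed between 1KI9 and 1D5 by 0.47 ± 0.06 (adjusted p = 1.21e-05).

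UBE2T had 37.3, 40.9 and 40.7 in 1KI9, 52.1, 57.7 and 48.9 in 1D5 and 42.55, 53.2 and 56.8 in FL in expansion, with 1KI9 lowest and no overlap with 1D5. The 1KI9 minus 1D5 difference was -0.41 ± 0.09 (adjusted p = 0.00135). The 6 markers of cycling cells summed in expansion to 353.4 to 404.8 in 1KI9, 424.3 to 471 in 1D5 and 434.9 to 525 in FL, and their part in the UBE2T difference was not tested. UBE2E3 was also lower in 1KI9, at -0.20 (adjusted p = 0.0385), a call lost without 1KI9 replicate 1 (-0.201, adjusted p = 0.0681), 1KI9 replicate 2 (-0.162, 0.134), 1D5 replicate 2 (-0.150, 0.159) or 1D5 replicate 3 (-0.205, 0.0619). Between 1KI9 and 1D5, median-of-ratios scaling gave 6 higher and 9 lower, and the all-gene median moved from 0.11 to -0.05.

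At day 4, 3 E2 genes were higher and 2 lower in 1KI9 than in 1D5, where 19.2% of all genes tested passed, 12.5% as higher and 6.69% as lower. UBE2E3 had 29.9, 33.2 and 32.2 in 1KI9 and 42.5, 43.2 and 38.6 in 1D5, without overlap, and differed by -0.37 ± 0.07 (adjusted p = 0.00134). UBE2G2 had 49.4, 47.2 and 56.6 in 1KI9 and 38.7, 36.2 and 43.5 in 1D5, without overlap, and differed by 0.36 ± 0.08 (adjusted p = 0.00562). As deposited, these are the genes that passed against FL in 1KI9 and not in 1D5. With median-of-ratios scaling UBE2E3 was lower than FL in each clone and UBE2G2 was lower than FL in 1D5 alone.

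UBE2Q1 had 37.95, 44.6 and 41.85 in 1KI9 and 58.2, 49.0 and 52.55 in 1D5 at day 4, and the groups did not overlap. Its difference of -0.35 ± 0.09 (adjusted p = 0.0108) was lost without 1KI9 replicate 1 (-0.292, adjusted p = 0.0629) or 1D5 replicate 1 (-0.287, 0.0584). UBE2J1 was higher in 1KI9 than in 1D5 by 0.29 ± 0.07 (adjusted p = 0.00836), and UBE2E1 by 0.25 ± 0.08 (adjusted p = 0.0276). The UBE2E1 call was lost without 1KI9 replicate 2 (0.214, adjusted p = 0.104) or 3 (0.255, 0.0708) and without 1D5 replicate 1 (0.249, 0.0657) or 3 (0.230, 0.0847). UBE2L6, UBE2H and UBE2O differed between the GATA1s clones at day 4 by -0.12, -0.17 and -0.15, and none of them passed as deposited. With median-of-ratios scaling UBE2H, at -0.22 (adjusted p = 0.0453), and UBE2O, at -0.195 (adjusted p = 0.0441), were lower in 1KI9. There were 3 higher and 4 lower with median-of-ratios scaling, and 5 higher and 2 lower without globin and mitochondrially encoded genes in the sum.

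Set across conditions as deposited, most E2 genes were lower at day 4 than in expansion, while UBE2L6 and UBE2H were higher in every clone. Of all genes tested, 52.2% were also lower in 1KI9, 47.0% in 1D5 and 57.2% in FL. The E2 split depended on the scaling, as given below. Comparisons across conditions cross the separately scaled parts of the table, and day, medium and scaling cannot be told apart. UBE2L6 averaged 2.60 ± 0.1665 at day 4 against 1.03 ± 0.460 in expansion in 1KI9, 2.93 ± 0.397 against 0.240 ± 0.0700 in 1D5 and 32.7 ± 1.02 against 0.820 ± 0.350 in FL. In expansion UBE2L6 reached 1 only in 1KI9 replicate 1 and FL replicate 1, so it met the minimum through its day-4 values. The day-4 mean was 2.52-fold, 12.2-fold and 39.8-fold the expansion mean in 1KI9, 1D5 and FL, over expansion means near 0. On the log2 scale these were 0.85 ± 0.14, 1.66 ± 0.14 and 4.23 ± 0.14, in that order (adjusted p = 2.37e-05, 3.12e-09 and 7.64e-15). In FL, 26 of 11015 genes tested had a higher difference than UBE2L6, and 168 a higher one than UBE2H.

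UBE2H averaged 41.1 ± 1.28 at day 4 against 28.97 ± 1.20 in expansion in 1KI9, 46.5 ± 3.68 against 15.8 ± 0.808 in 1D5 and 79.2 ± 2.55 against 12.2 ± 1.33 in FL. The differences were 0.49 ± 0.07 in 1KI9, 1.49 ± 0.07 in 1D5 and 2.61 ± 0.07 in FL (adjusted p = 9.69e-06, 2.90e-12 and 1.71e-15). The order of the clones was thus turned between the conditions, with 1KI9 highest in expansion and lowest at day 4, although its day-4 libraries lay close to those of 1D5. UBE2O had day 4 minus expansion differences of -0.52 in 1KI9 and -0.32 in 1D5, and in FL of 0.00, which did not pass (adjusted p = 0.97). With median-of-ratios scaling the FL value was 0.45 and passed (adjusted p = 5.36e-06), and the 1D5 fall was -0.16. The 1D5 fall did not pass without globin and mitochondrially encoded genes in the sum (-0.087, adjusted p = 0.246).

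UBE2B, UBE2V1, UBE2F and UBE2Q2 also rose in FL. The difference of UBE2F was -0.17 in 1KI9, 0.36 in 1D5 and 0.78 in FL, that of UBE2V1 -0.34, -0.05 and 0.62, and that of UBE2B -0.42, -0.11 and 0.50, in the same order of clones. The 1D5 values of UBE2V1 and UBE2B did not pass (adjusted p = 0.352 and 0.144), and the fall of UBE2F in 1KI9 turned to a difference of 0.12 with median-of-ratios scaling and to a rise of 0.152 (adjusted p = 0.0455) without globin and mitochondrially encoded genes in the sum. As deposited it no longer passed without 1KI9 expansion replicate 1 (-0.137, adjusted p = 0.0867), 1KI9 expansion replicate 2 (-0.164, 0.0540) or 1KI9 day-4 replicate 3 (-0.158, 0.0602). The falls of UBE2V1 and UBE2B in 1KI9 did not pass with either other scaling, UBE2B being at -0.13 (adjusted p = 0.101) with median-of-ratios scaling and at -0.101 (adjusted p = 0.228) without globin and mitochondrially encoded genes in the sum. UBE2Q2 differed by 0.15 in 1KI9, which did not pass, by 0.40 in 1D5 and by 0.49 in FL. With median-of-ratios scaling it passed in 1KI9 too, at 0.43 (adjusted p = 8.68e-06).

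Among the genes that fell in every clone, UBE2T had 17.2, 17.6 and 16.4 at day 4 in 1KI9, 17.3, 18.6 and 16.1 in 1D5 and 16.0, 16.0 and 15.8 in FL, far below the expansion values given above. The differences were -1.17 ± 0.09 in 1KI9, -1.56 ± 0.09 in 1D5 and -1.60 ± 0.09 in FL (adjusted p = 1.37e-09, 1.65e-11 and 5.55e-12). The cycling markers summed at day 4 to 115.9 to 117.4 in 1KI9, 120.2 to 131.9 in 1D5 and 144.9 to 156.7 in FL, also well below expansion, and their part was not tested.

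UBE2N, the K63 chain enzyme, had 71.1, 70.4 and 71.15 in 1KI9, 64.1, 63.25 and 61.2 in 1D5 and 41.0, 44.65 and 43.95 in FL at day 4. In expansion it had 140.5, 149 and 151 in 1KI9, 155, 164 and 143 in 1D5 and 131, 162 and 166 in FL. All 9 day-4 libraries lay below all 9 expansion libraries. The differences were -1.04 ± 0.07 in 1KI9, -1.28 ± 0.07 in 1D5 and -1.80 ± 0.07 in FL (adjusted p = 6.00e-10, 2.03e-11 and 1.04e-13).

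UBE2V2 had 93.0, 93.3 and 91.1 in 1KI9, 94.1, 98.1 and 91.7 in 1D5 and 76.0, 72.5 and 76.1 in FL at day 4. In expansion it had 173, 166 and 166 in 1KI9, 175, 176 and 181 in 1D5 and 153, 196 and 190.4 in FL. It differed by -0.86 ± 0.07 in 1KI9, -0.90 ± 0.07 in 1D5 and -1.24 ± 0.07 in FL, with no overlap between the conditions. UBE2L3 had 29.4, 31.65 and 29.6 in 1KI9, 27.4, 30.05 and 27.1 in 1D5 and 20.3, 20.5 and 19.9 in FL at day 4. In expansion it had 48.9, 53.2 and 54.0 in 1KI9, 53.1, 50.5 and 47.2 in 1D5 and 40.9, 52.9 and 53.05 in FL. It differed by -0.76 ± 0.08 in 1KI9, -0.81 ± 0.08 in 1D5 and -1.22 ± 0.08 in FL, also without overlap. Thus 3 of the members that fell by most were the K63 enzyme, its partner UBE2V2 and the HECT and RBR partner UBE2L3, while the partner UBE2V1 rose in FL.

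Over the family, 2 E2 genes were higher and 22 lower at day 4 in 1KI9, against 74.4% of the 11015 genes tested passing, 22.2% as higher and 52.2% as lower. In 1D5 the counts were 6 higher and 18 lower, against 78.9% of all genes, 31.9% as higher and 47.0% as lower. In FL they were 6 higher and 21 lower, against 83.7%, 26.5% as higher and 57.2% as lower. In all 3 clones, which share no library here, 2 passed as higher and 16 as lower, against 56.4% of all genes, 15.9% as higher and 40.5% as lower. The median E2 difference was -0.45 in 1KI9, -0.35 in 1D5 and -0.55 in FL, beside -0.25, -0.15 and -0.38 over all genes, so that the median gene of the table was also lower at day 4.

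The scaling moved these splits. With median-of-ratios scaling the all-gene median moved from -0.25 to 0.02 in 1KI9, from -0.15 to 0.00 in 1D5 and from -0.38 to 0.02 in FL, and the E2 split was 6 higher and 15 lower in 1KI9, 9 and 17 in 1D5, 14 and 15 in FL, and 6 and 12 in all 3 clones. Without globin and mitochondrially encoded genes in the sum it was 7 higher and 14 lower in 1KI9, 10 and 12 in 1D5, 9 and 16 in FL, and 5 and 9 in all 3 clones. UBE2L6 and UBE2H were higher and UBE2T, UBE2N, UBE2V2 and UBE2L3 lower in every clone under each of these scalings. As deposited, changes of at least 2-fold past the threshold numbered 2 in 1KI9, 4 in 1D5 and 11 in FL. The share of all genes at that cut was not taken, so nothing about the family is read from these counts. They also moved with the scaling. With median-of-ratios scaling the FL falls of UBE2L3 (-0.77) and UBE2V2 (-0.78) were under 2-fold, while the FL rises of UBE2F (1.25) and UBE2V1 (1.09) were over it.

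**Figure D4:**
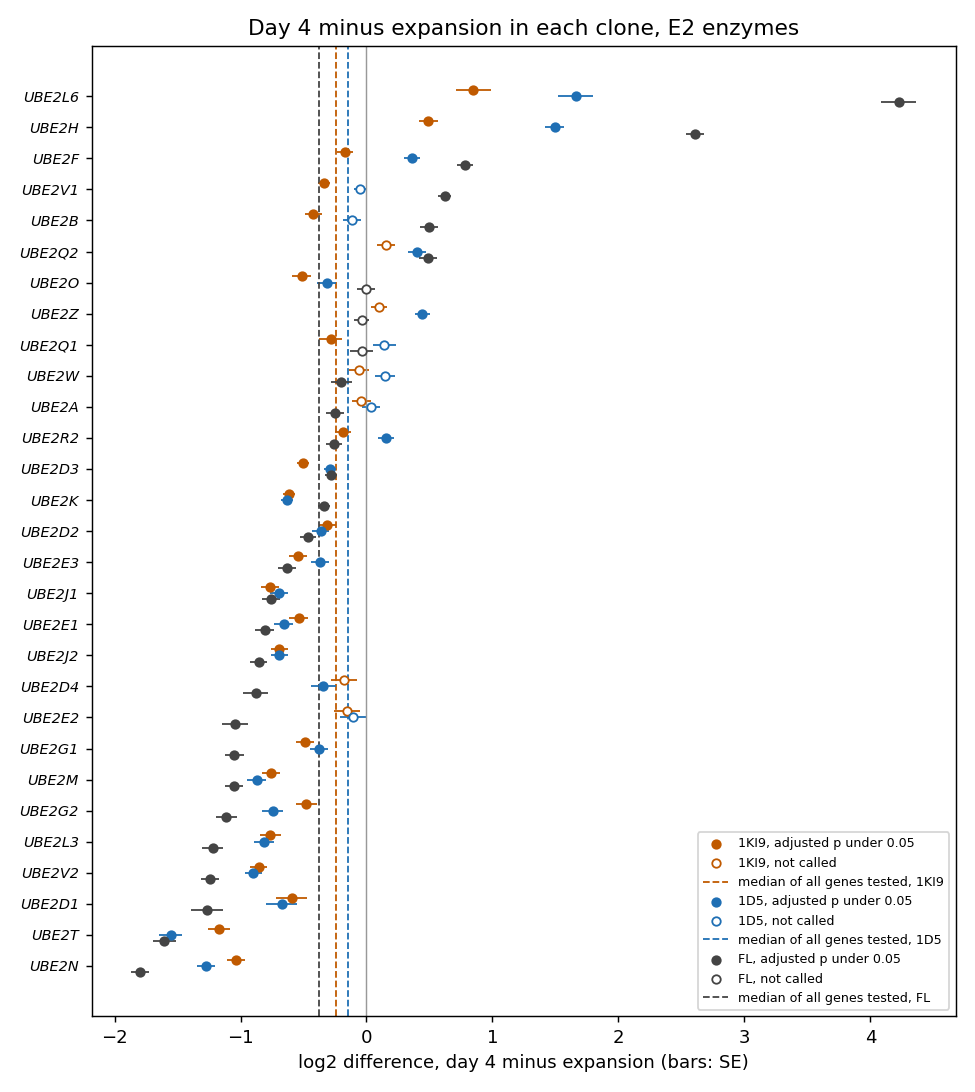
Day 4 minus expansion log2 difference of each E2 gene in 1KI9, 1D5 and FL, with bars of 1 SE and filled points for genes past the adjusted threshold. UBE2L6 and UBE2H rise most in FL, at 4.23 and 2.61, and UBE2T and UBE2N fall most in each clone.

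Whether the difference of the GATA1s clones from FL itself differed between conditions was tested with an interaction term, the mean of the clone minus FL differences at day 4 minus that in expansion. It passed for 22 of the 30 E2 genes, 14 higher and 8 lower, against 65.1% of all genes tested, 45.4% as higher and 19.7% as lower. The E2 median was 0.22 beside 0.21 over all genes. With median-of-ratios scaling, which moved the all-gene median to 0.01, 7 were higher and 11 lower, and without globin and mitochondrially encoded genes in the sum 18 higher and 7 lower.

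UBE2L6 had an interaction of -2.97 ± 0.17 (adjusted p = 2.42e-10), with 11 of 11015 genes further down. UBE2H followed at -1.61 ± 0.09 (adjusted p = 2.24e-10), its clone minus FL difference being positive in expansion and negative at day 4. UBE2V1 showed the same turn of sign, with -0.82 ± 0.06 (adjusted p = 7.06e-09). UBE2E2 had the highest interaction, 0.91 ± 0.12 (adjusted p = 6.30e-06). Its expansion values were 40.5, 42.7 and 45.3 in 1KI9, 35.9, 38.6 and 36.2 in 1D5 and 38.75, 40.0 and 52.4 in FL, where 1KI9 and FL overlapped and 1D5 lay just below both, and neither clone passed against FL. UBE2J1, higher in the clones in both conditions, had an interaction of 0.03 (adjusted p = 0.766) as deposited and of -0.18 (adjusted p = 0.0221) with median-of-ratios scaling.

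The rest of the cascade was read from a list of 63 tested genes, made of E1 enzymes, ubiquitin and its relatives, E2 enzymes with other names and E3 ligases paired with the E2 enzymes above. At day 4, 33 were higher and 13 lower in 1KI9, where 58.9% of all genes tested were higher and 17.5% lower, and 32 higher and 12 lower in 1D5, where 54.8% and 16.3% were. In expansion 25 were higher and 6 lower in 1KI9, against 41.0% and 18.5% of all genes, and 8 higher and 5 lower in 1D5, against 18.7% and 12.4%. No result about the cascade is read from these counts or from those of the E1 and E3 genes. At day 4 all 9 E1 genes passed in 1KI9, 8 as higher and 1 as lower, and 8 in 1D5, 7 as higher and 1 as lower. Of the 36 E3 genes, 16 were higher and 8 lower in 1KI9, and 16 higher and 6 lower in 1D5. Across conditions 9 cascade genes were higher and 37 lower at day 4 in 1KI9, 17 higher and 31 lower in 1D5, and 15 higher and 38 lower in FL, beside the shares of all genes given above. As for the E2 genes, the scaling turned these splits. With median-of-ratios scaling there were 15 higher and 31 lower in 1KI9 and 17 higher and 27 lower in 1D5 at day 4, 11 higher and 23 lower in 1KI9 and 7 higher and 8 lower in 1D5 in expansion, and 22 higher and 20 lower in 1KI9, 22 higher and 25 lower in 1D5 and 29 higher and 21 lower in FL across conditions. The calls of the cascade genes named next kept their direction and stayed past the threshold with it.

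TRIM58, an erythroid E3 ligase, was the cascade gene furthest below FL at day 4. It had 16.2, 15.2 and 16.7 in 1KI9, 23.0, 19.7 and 22.5 in 1D5 and 82.8, 86.2 and 86.4 in FL, and differed by -2.34 ± 0.09 in 1KI9 (adjusted p = 1.17e-13) and -1.92 ± 0.09 in 1D5 (adjusted p = 2.18e-12). All GATA1s libraries lay far below FL. RANBP9, a scaffold subunit of the CTLH ligase that UBE2H serves, had 52.85, 53.4 and 53.3 in 1KI9, 49.9, 47.9 and 47.2 in 1D5 and 20.8, 21.3 and 21.3 in FL. It was higher by 1.29 ± 0.06 in 1KI9 (adjusted p = 1.89e-12) and 1.15 ± 0.06 in 1D5 (adjusted p = 1.18e-11), the opposite direction to UBE2H.

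In the same day-4 comparisons RNF168, a ligase of histone H2A that works with UBE2N, was higher by 0.96 in 1KI9 and 0.94 in 1D5. FANCL, the ligase that uses UBE2T, was higher by 0.94 in 1KI9 and 0.84 in 1D5, SAE1, a subunit of an E1 enzyme, by 0.86 and 0.88, and UFM1, a ubiquitin-like modifier, by 1.11 and 0.62. UBE2T itself did not pass.

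In expansion RANBP9 was higher by 0.84 in 1KI9 and 0.51 in 1D5, and WDR26, another CTLH subunit, by 0.64 and 0.20, in the direction of UBE2H there. At day 4 WDR26 was lower, at -0.31 in 1KI9 and -0.15 in 1D5. CDC34, the founding SCF E2 and closest relative of UBE2R2, was higher in expansion by 0.50 in 1KI9 and 0.38 in 1D5, and lower at day 4, at -0.98 and -0.71. UFM1 was higher in expansion by 0.57 in 1KI9 and 0.23 in 1D5.

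The direct partners of UBE2L6 were looked up after its values had been seen. UBA7, the E1 of ISG15, had 2.02, 2.01 and 2.20 in 1KI9, 2.34, 2.21 and 2.89 in 1D5 and 4.28, 3.53 and 3.74 in FL at day 4, and was lower, at -0.65 in 1KI9 and -0.48 in 1D5. ISG15 itself had 15.3, 14.7 and 13.04 in 1KI9, 43.9, 54.35 and 45.45 in 1D5 and 10.7, 13.6 and 12.2 in FL. It was higher in 1D5 by 1.89 (adjusted p = 5.05e-09) and differed by 0.23 in 1KI9, which did not pass (adjusted p = 0.188). These differences are as deposited, and median-of-ratios scaling lowered the day-4 differences of the E2 genes from FL. A link between ISG15 and UBE2L6 was not tested. Other CTLH subunits, also chosen after their values were seen, moved in both directions at day 4, with RMND5A at -0.81 in 1KI9 and -0.80 in 1D5, GID8 at -0.46 and -0.52, ARMC8 at 0.94 and 0.75, and MAEA at 0.16 and 0.07, the last not past the threshold in either clone as deposited and lower with median-of-ratios scaling, at -0.22 in 1KI9 and -0.25 in 1D5.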

How the data were processed

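RNA was sequenced from 18 stranded mRNA libraries, 3 in each of the 6 groups. Per the submitters' processing notes, tools included Trim Galore 0.60, STAR 2.7 and RSEM 1.31 with build hg38 (GRCh38.p12). The authors deposited 1 table, in TPM for expansion and as a TPM-like signal of unstated scaling for day 4. The test design had assumed TPM throughout, and the log-scale test was kept for both. Of 13358 genes listed, 724 were at 0 in every expansion library and 312 in every day-4 library. Depth is unknown, so no counting intervals are given. No source used here gives the strand setting of counting.

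Values were tested as log2(value + 1) with limma 3.58.1 (R 4.3.3), with 6 group means and variances that follow the level. A gene entered the fit where 3 or more libraries had a value of 1 or more (11110 genes). Genes at 0 throughout a condition (68 in expansion, 27 at day 4) did not enter comparisons involving it. P-values were adjusted by Benjamini-Hochberg over all genes tested, with a threshold of 0.05. The procedure was tested on simulated data in which 200 genes changed by 1 on the log2 scale in 1 group, as many up as down. Far fewer genes changed there than passed here, and the simulated libraries had no shift in scaling. The simulation therefore does not speak to the dependence on scaling. Members, role lists and the cascade list were chosen with earlier results of these data known. Members are named, except that a few genes of the family and cascade are not reported here, though counts include them. Values of each library are given for UBE2O, UBE2H and UBE2L6 and for the genes called with the largest differences, 6 per condition against FL, 4 between the clones, 6 across conditions and 4 for the interaction, with at most 6 other cascade genes per condition. Gene positions are from GENCODE 29. Alternatives were median-of-ratios scaling, a sum without globin and mitochondrially encoded genes, a pseudocount of 0.1, no filter, no variance trend, a fit on only the groups compared, a 1.5-fold minimum, a replicate block and leaving out each library.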

Additional observations from a re-analysis of the deposited data

Results flagged for a closer look

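The difference of the GATA1s clones from FL was not the same at day 4 and in expansion for 22 of the 30 E2 genes, by the interaction term of the limma fit. Of all 11015 genes tested, 65.1% also passed, so the count is not read as a trait of the family. The values given here are that interaction, the clone minus FL difference at day 4 minus the one in expansion, on the log2 scale. It was negative for UBE2L6 at -2.97, UBE2H at -1.61, UBE2V1 at -0.82, UBE2B at -0.76, UBE2F at -0.68, UBE2O at -0.41, UBE2K at -0.29 and UBE2Q2 at -0.21. It was positive for UBE2E2 at 0.91, UBE2N at 0.64, UBE2D1 at 0.63, UBE2D4 at 0.62, UBE2G1 at 0.62, UBE2G2 at 0.50, UBE2L3 at 0.43, UBE2V2 at 0.37, UBE2Z at 0.31, UBE2A at 0.25, and UBE2M, UBE2R2 and UBE2W at 0.24 each. As deposited, UBE2H, UBE2V1, UBE2B and UBE2F were higher than FL in expansion in 1KI9 and lower than FL at day 4 in each clone.

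With median-of-ratios scaling the interaction no longer passed for UBE2L3 (0.21, adjusted p = 0.0564), UBE2V2 (0.13, 0.201), UBE2Z (0.08, 0.314), UBE2A (0.02, 0.867), UBE2M (0.005, 0.965), UBE2R2 (0.02, 0.794) or UBE2W (0.05, 0.629). Without globin and mitochondrially encoded genes in the sum UBE2Q2 did not pass (-0.192, adjusted p = 0.0623).

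The smallest of these calls rest on single libraries. UBE2M was lost without FL expansion replicate 2 (0.174, adjusted p = 0.0942), FL expansion replicate 3 (0.212, 0.0659) or FL day-4 replicate 1 (0.195, 0.0868), and UBE2A without FL expansion replicate 2 (0.161, 0.0954) or FL day-4 replicate 3 (0.228, 0.0568). UBE2Q2 was lost when any 1 of 9 libraries was left out, at -0.205 to -0.179, and UBE2W when any 1 of 11 was left out, at 0.193 to 0.245. The expansion call of UBE2B in 1KI9 was itself lost without FL expansion replicate 1 (0.139, adjusted p = 0.0828).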

How the results depend on the processing

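Depth is unknown, the groups hold 3 libraries each, genotype rests on 1 FL clone, and day 4 and expansion were scaled separately, so small differences and those across conditions are the least secure. A pseudocount of 0.1, no filter on low values and no variance trend left each family count within 1.5 times its value. When only the groups compared were fitted, 3 E2 genes passed in 1D5 against FL in expansion and 8 in 1KI9 against 1D5 at day 4. With at least 1.5-fold also required, the counts were 3 in 1KI9 and 0 in 1D5 in expansion and 11 in 1KI9 and 7 in 1D5 at day 4 against FL. They were 2 in expansion and 0 at day 4 between the GATA1s clones, 10 in 1KI9, 13 in 1D5 and 9 in all 3 clones across conditions, and 10 for the interaction. Why the counts moved when only the groups compared were fitted was not tested. An added minimum can only lower a count or leave it. The share of all genes was not taken at these settings.

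Leaving out 1 library at a time gave 24 to 25 E2 genes in 1KI9 and 22 to 23 in 1D5 at day 4, and 14 to 19 in 1KI9 and 6 to 13 in 1D5 in expansion. Between the GATA1s clones it gave 3 to 8 at day 4 and 11 to 14 in expansion, the 3 without 1D5 day-4 replicate 1 and the 8 without FL expansion replicate 1. Across conditions it gave 23 to 25 in 1KI9, 23 to 24 in 1D5, 26 to 27 in FL and 18 to 19 in all 3 clones, and for the interaction 18 to 26. With all libraries, 76.4% of all genes tested passed against FL in 1KI9 and 71.1% in 1D5 at day 4, and 59.6% and 31.1% in expansion. All-gene shares were not taken with a library left out, so these ranges speak only of how steady the calls were.

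With median-of-ratios scaling these differences changed sign. Against FL at day 4 they were UBE2A -0.030, UBE2D2 -0.140, UBE2R2 -0.070 and UBE2V2 -0.082 in 1KI9, and UBE2D2 -0.132 and UBE2E1 -0.001 in 1D5. In expansion they were UBE2D3 -0.091 in 1KI9 against FL and UBE2D3 -0.039 in 1KI9 against 1D5. Across conditions they were UBE2F 0.124, UBE2Q1 0.009 and UBE2R2 0.096 in 1KI9, and UBE2A 0.211, UBE2D2 0.002, UBE2D3 0.185, UBE2K 0.128, UBE2R2 0.183 and UBE2W 0.203 in FL. In FL all of these except UBE2D2 passed as higher in the limma fit with that scaling (adjusted p = 0.00343 to 0.0206). Without globin and mitochondrially encoded genes in the sum, the differences across conditions that changed sign were UBE2D2 0.012, UBE2F 0.152, UBE2Q1 0.036 and UBE2R2 0.125 in 1KI9, and UBE2A 0.009 and UBE2W 0.027 in FL.

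The replicate numbers did not pair the libraries throughout, and a partial pairing was not tested. Deviations of libraries with the same number correlated at -0.152 to 0.429, and in 0 of 15 pairs of groups was every correlation over 0.1. The same number correlated best in 47 of 90 cases, each a choice among 3 libraries. The highest values were those of 1D5 with 1KI9 at day 4, at 0.429 for replicate 2 and 0.272 for replicate 3. With the replicate number as a block, 24 E2 genes passed in 1KI9 and 23 in 1D5 at day 4, and 17 in 1KI9 and 10 in 1D5 in expansion.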
